A study of Mus musculus with 16 samples.

Results

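The genes of granule docking and exocytosis were taken by name, as the synaptotagmins (Syt and Sytl), the SNARE proteins (Vamp, Stx and Snap), the syntaxin-binding proteins (Stxbp), the Munc13 priming factors (Unc13), the RIM scaffolds (Rims) and the complexins (Cplx). The names gave 67 genes of the 54146 listed, of which 63 passed a filter on variance and non-zero counts and were tested. Syt8, Syt10, Unc13c and Cplx4 did not pass, with mean levels of 0.00198 to 0.0347 TPM (RSEM's length-scaled abundance). The names also take in genes with other known roles, such as Snap91, which codes for a clathrin adaptor, Stx5a of the Golgi and Stx17 of autophagy.

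RNA was sequenced from whole pancreatic islets of the 8 founder strains of the Diversity Outbred mice, in 91 libraries. These were 129S1_SvImJ (129, 10 libraries), A_J (AJ, 14), C57BL/6J (B6, 18), CAST_EiJ (CAST, 14), NOD_ShiLtJ (NOD, 10), NZO_HlLtJ (NZO, 4), PWK_PhJ (PWK, 5) and WSB_EiJ (WSB, 16), with both sexes in every strain. Every mouse was 26 weeks of age and on a high-fat diet, so no other age or diet was compared. The labels do not say that libraries of a strain came from separate mice, and p-values measure the spread between libraries, which may be technical. Ins2 had a median of 244200 to 435800 TPM in the strains, so the libraries carried the defining transcript of beta cells.

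Beta cells store insulin in dense-core granules and release it when calcium entry makes the granules fuse with the plasma membrane. Fusion is driven by a SNARE complex of Vamp2 on the granule with syntaxin 1A (Stx1a) and SNAP-25 (Snap25) on the plasma membrane, which is primed by Munc13, regulated by complexin and triggered by synaptotagmins that bind calcium. Granuphilin (Sytl4) docks granules at the membrane, and RIM proteins link them to calcium channels.

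Promoters of 51 of the 67 genes were matched in RefSeq (GRCm38.p6), which gave 62 promoters. The 250 bases before each start were searched on both strands. The GC box GGGCGG was present in 37 of the 62 (59.7% against 32.7% of all 32851 promoters), CCAAT in 19 (30.6% against 33.8%), the TATA box letters TATAAA in 2 (3.23% against 12.4%) and the cyclic AMP element TGACGTCA in 1 (1.61% against 1.55%). A match describes letters and is not a binding site. The promoters of 3 members with wide strain differences are printed from the B6 reference, up to the annotated start of the gene, with motif matches on either strand in capitals. Syt9 (chr7:107370540-107370727, plus strand) had 2 GC boxes in 188 bases with a GC content of 79.8%, Stx11 (chr10:12964299-12964509, minus strand) had 2 in 211 bases with 68.7%, and Sytl3 (chr17:6658809-6659058, plus strand) had 0 matches in 250 bases with 45.2%.
Syt9: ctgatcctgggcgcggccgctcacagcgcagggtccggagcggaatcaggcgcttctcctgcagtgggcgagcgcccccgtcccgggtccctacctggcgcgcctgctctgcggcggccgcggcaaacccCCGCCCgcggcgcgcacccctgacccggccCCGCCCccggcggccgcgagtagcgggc
Stx11: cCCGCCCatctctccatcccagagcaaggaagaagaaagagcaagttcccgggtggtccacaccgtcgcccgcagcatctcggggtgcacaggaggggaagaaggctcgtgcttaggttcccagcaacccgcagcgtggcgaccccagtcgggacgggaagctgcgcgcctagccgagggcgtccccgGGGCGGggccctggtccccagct
Sytl3: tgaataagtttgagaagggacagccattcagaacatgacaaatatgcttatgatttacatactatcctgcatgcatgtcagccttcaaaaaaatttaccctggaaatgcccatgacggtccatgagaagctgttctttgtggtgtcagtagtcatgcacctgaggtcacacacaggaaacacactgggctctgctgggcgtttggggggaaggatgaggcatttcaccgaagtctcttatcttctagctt

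Levels were compared between genes in TPM, which are scaled by gene length. A mean of at least 1 TPM was reached by 54 of the 67 genes, and 44 of them reached 1 TPM in every library. Syt13, an atypical synaptotagmin that does not bind calcium, had the highest mean over all libraries, at 293 ± 99.01 TPM (SD, n = 91), followed by Vamp2 (134 ± 38.04), Sytl4 (131 ± 34.4) and Cplx2 (117 ± 36.9). The order was not that of every strain. In PWK the mean of Vamp2 (165 TPM) was above that of Syt13 (157 TPM), and in CAST that of Sytl4 (139.9 TPM) was close to that of Syt13 (146 TPM). The plasma membrane partners of Vamp2 were lower, with Snap25 at 60.5 ± 16.3 TPM and Stx1a at 7.58 ± 2.53 TPM. In several families 1 gene held most of the TPM summed over all libraries. Cplx2 held 98.8% of the complexins, Sytl4 80.9% of the Syt-like genes, Rims3 71.7% of the RIM genes, Syt13 64.7% of the synaptotagmins and Unc13a 61.1% of the Munc13 genes. In NOD Unc13a held a mean of 41.3% and Unc13d up to 60.1%, and by mean share Syt13 did not hold most of its sum in CAST and PWK. Among calcium sensors, Syt7 (55.9 ± 14.2 TPM), Syt5 (23.8 ± 7.85) and Syt9 (5.80 ± 2.41) had higher means than the synaptic Syt2 (2.53 ± 1.19) and Syt1 (1.99 ± 0.884) over all libraries. By strain medians Syt2 (4.32 TPM) was above Syt9 (3.02 TPM) in CAST, and Syt1 (2.83 TPM) was above Syt9 (2.31 TPM) in NOD.

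**Figure D1:**
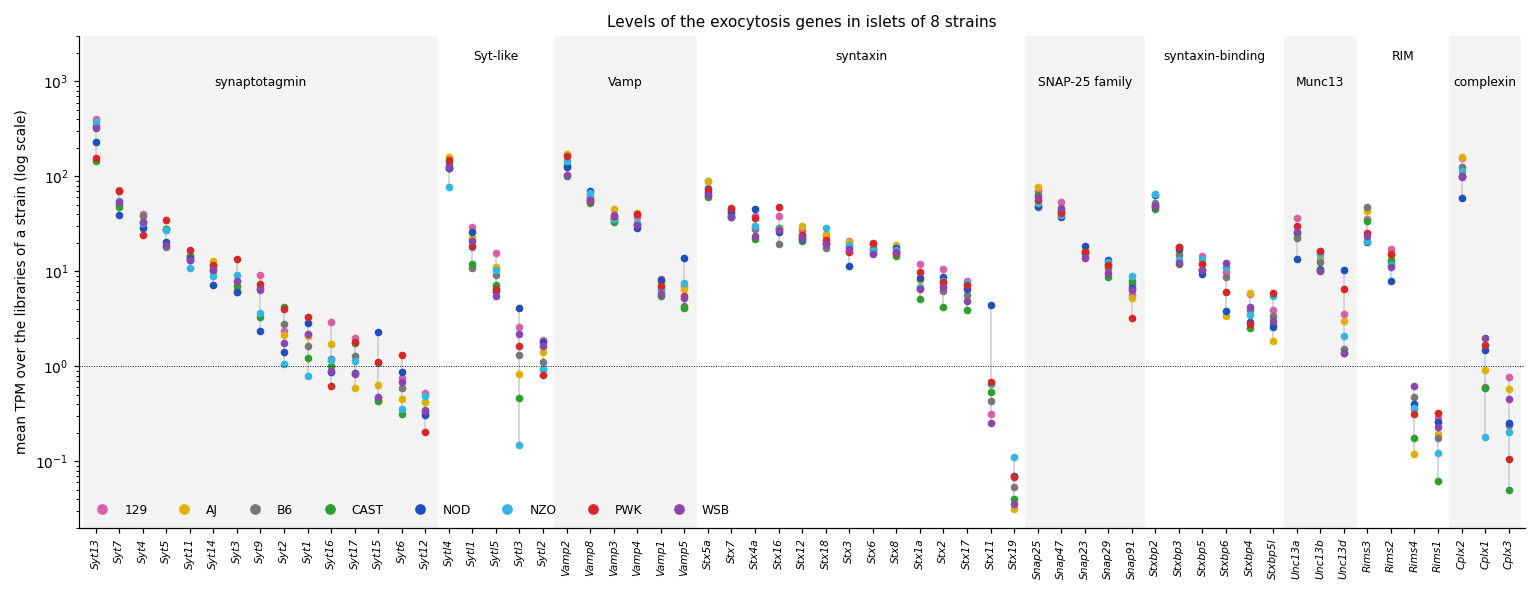
Mean TPM of 61 of the tested exocytosis genes in each of the 8 strains, on a log axis, grouped by role. Each point is the mean over the libraries of a strain. Syt13 has the highest mean over all libraries, at 293 TPM, though Vamp2 is above it in PWK, and Stx11, Sytl3 and Cplx1 show wide gaps between strains.

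In bulk islets, fewer cells of a type and less RNA per cell cannot be told apart. The summed level of 10 acinar markers ranged from 1577 to 283900 TPM and that of 9 beta cell markers from 166500 to 572400 TPM over the libraries. PWK replicate 4 had 277600 TPM of acinar markers, against 45550 to 98200 TPM in the other PWK libraries, and low TPM of many members. Differences between strains were tested on normalized counts, and unless TPM is named overlap between strains is given on that scale. All differences and ranges between strains or sexes are on the log2 scale. Reads were assigned with the B6 genome, and the part of mapping in the differences of the wild-derived CAST and PWK was not tested.

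Tests used edgeR's quasi-likelihood method with Benjamini-Hochberg adjustment over the 15204 genes that passed the filter. A strain effect was found in 62 of the 63 members and in 97.4% of all genes tested, and Stx5a did not pass (adjusted p = 0.0782). The strain range, which is the log2 difference between the highest and the lowest fitted strain, was at least 1 in 29 members, against 44.4% of all genes. Its median was 0.94 over the members and 0.87 over all genes. In 15 members 1 strain was higher than each of the other 7, which 25.8% of all genes showed. In 26 members 1 strain was lower than each of the other 7, against 21.7% of all genes. Lowest in NOD were 9 members (5.04% of all genes), lowest in NZO were 6 (1.78%) and lowest in PWK were 4 (4.61%). Highest in NOD were 6 (11.3%), and highest in PWK were 3 (4.04%). By median TPM the called strain was also the extreme one for 12 of the 15 (not for Syt2, Vamp2 and Stx6) and for 24 of the 26 (not for Stxbp3 and Stxbp4). Among the calls lost on leaving out 1 NZO library were those of Syt15 and Vamp5 (replicate 1), Syt3 (1, 2 or 3), Vamp2 and Sytl5 (2, 3 or 4), Sytl4 (2, 3 or 4), Stxbp3 (3 or 4) and Stx6 (4). Leaving out 1 PWK library lost the calls of Vamp2 (1, 3 or 4), Syt3 (2 or 4), Syt2 (3, 4 or 5), Syt12 (2 or 3), Syt16 as lowest in PWK (3 or 4), Stxbp4 (4) and Cplx3 (3).

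**Figure D2:**
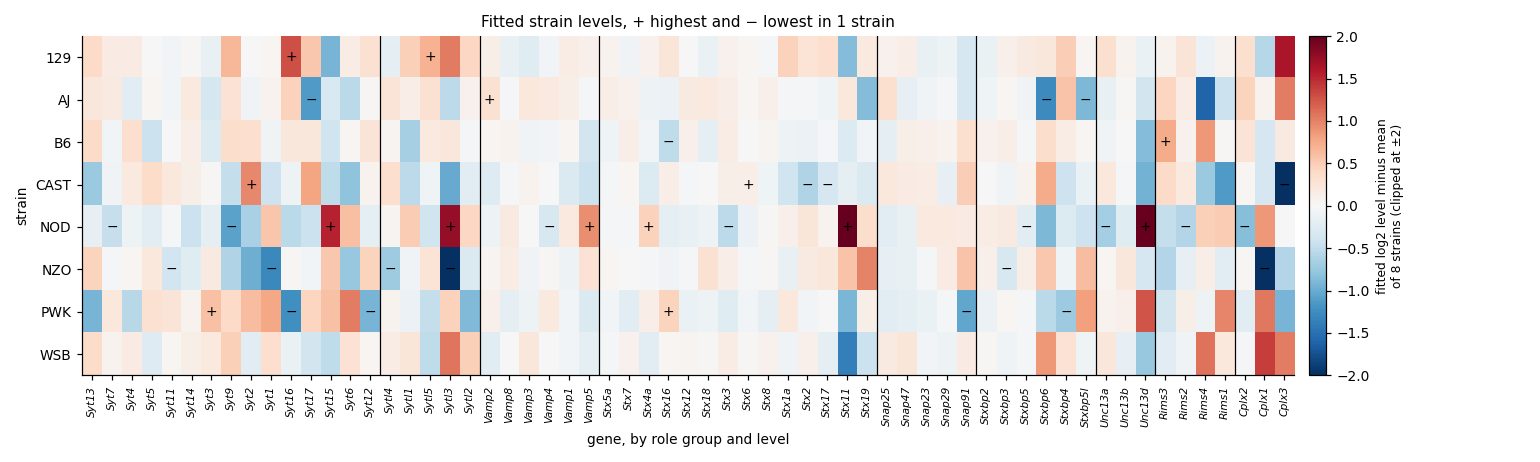
Fitted log2 level of 61 of the 63 tested genes in each strain, relative to the mean of the 8 strains, with marks where a strain was above (plus) or below (minus) each of the other 7. The genes shown carry 14 plus and 25 minus marks, of which NOD has 6 and 8.

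A strain range of at least 1, which 44.4% of all genes showed, was found in 9 of 15 synaptotagmins, 5 of 5 Syt-like genes, 3 of 3 complexins and 3 of 4 RIM genes. It was found in 1 of 6 Vamp genes, 3 of 15 syntaxins, 1 of 5 Snap genes, 3 of 7 syntaxin-binding proteins and 1 of 3 Munc13 genes. No test between the groups was made.

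Syt13 was low in CAST and PWK. It was at 76.3, 145 and 248 TPM in CAST (lowest, median and highest, as for every strain of more than 5 libraries below), and at 174, 189, 145, 87.9 and 192 TPM in the 5 PWK libraries. Medians were 253 TPM in NOD and 336 to 396 TPM in the other 5 strains. In TPM 3 B6 libraries (the lowest at 142 TPM), 5 NOD libraries (the lowest at 138 TPM) and all 5 PWK libraries lay inside the CAST range. Syt13 was lower in CAST than in B6 by a log2 difference of 1.13 (SE 0.0823, adjusted p = 1.02e-21) and lower in PWK than in NZO by 1.38 (SE 0.153, adjusted p = 1.92e-12). The difference of 0.18 between CAST and PWK did not pass (SE 0.119, adjusted p = 0.21).

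The share of Syt13 in the summed TPM of the synaptotagmins was 48.2% ± 4.93 over the 14 CAST libraries and 45.1% ± 2.32 over the 5 PWK libraries (mean ± SD). In the other strains the mean share was between 64.3% in NOD and 70.6% in NZO. CAST libraries reached up to 57.5%, and among the other 6 strains only NOD had a library below that, at 54.7%. Syt7, a high-affinity calcium sensor of insulin granules, made up 16.4% ± 2.00 of the sum in CAST and 20.03% ± 0.844 in PWK, against means of 10.5% to 13.5% elsewhere.

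**Figure D3:**
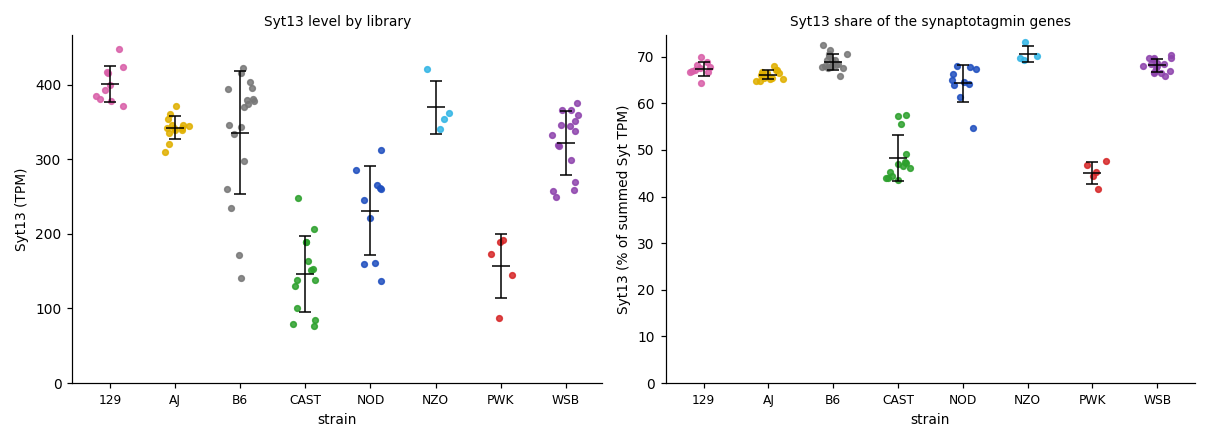
Syt13 in each library by strain, as TPM and as percent of the summed TPM of the synaptotagmin genes, with the mean and SD of each strain. CAST and PWK sit lowest in both panels, with mean shares of 48.2% and 45.1%.

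Syt9, a calcium sensor of dense-core granules, was lowest in NOD. It was at 1.38, 2.31 and 3.54 TPM in NOD and at 6.81, 9.08 and 12.9 TPM in 129, and the 4 NZO libraries were at 3.49, 4.02, 3.57 and 3.50 TPM. In normalized counts the NOD libraries lay below every library of 129, AJ, B6, NZO, PWK and WSB, and only CAST overlapped. The difference between 129 and NOD was 1.74 (SE 0.121, adjusted p = 1.92e-22), and NZO, the nearest strain, was above NOD by 0.48 (SE 0.155, adjusted p = 0.00787). Syt7 was also lowest in NOD, at 21.8, 40.1 and 52.3 TPM, with CAST nearest at a difference of 0.39 (SE 0.0652, adjusted p = 1.58e-07).

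Other synaptotagmins with a call were mostly of low level. Syt1, the sensor of fast synapses, was lowest in NZO, at 1.26, 0.79, 0.47 and 0.66 TPM, and at 3.82, 3.33, 3.95, 1.79 and 3.79 TPM in PWK, a range of 2.05. Syt11, which does not bind calcium, was lowest in NZO at a median of 10.5 TPM, with 13.3 to 17.1 TPM elsewhere. In the nearest strain to NZO the difference was 0.87 for Syt1 and 0.33 for Syt11. Syt2, a close relative of Syt1, was highest in CAST, at 1.97, 4.32 and 6.65 TPM, and Syt3 was highest in PWK, at 14.9, 18.9, 11.9, 8.54 and 13.5 TPM. Syt16 was highest in 129 (median 2.95 TPM) and lowest in PWK (0.59 TPM), a range of 2.52. Syt12 was lowest in PWK (median 0.19 TPM), Syt17 lowest in AJ (0.575 TPM) and Syt15 highest in NOD (1.91 TPM). Syt4 and Syt5, both found on dense-core granules, had ranges of 0.89 between B6 and PWK and 0.79 between CAST and B6.

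Among the Syt-like genes, whose proteins bind Rab27 on granules, Sytl4 was lowest in NZO. The NZO libraries were at 124, 65.1, 54.5 and 62.7 TPM, and the medians of the other strains were 124 to 157 TPM. Replicate 1 stood apart from the other 3 NZO libraries. The difference from 129, the nearest strain, was 0.52 (SE 0.171, adjusted p = 0.0119). Sytl3 had the widest range of all tested members, 4.75 between NOD and NZO (SE 0.345, adjusted p = 6.70e-21). It was at 0.24, 0.11, 0.2 and 0.04 TPM in NZO and 1.21, 3.31 and 8.32 TPM in NOD. The NZO libraries lay below every library of 129, AJ, B6, NOD, PWK and WSB. Sytl5 was highest in 129 at a median of 16.1 TPM, with a range of 1.20 down to WSB, and Sytl1 had a range of 1.18 between NOD and B6.

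**Figure D4:**
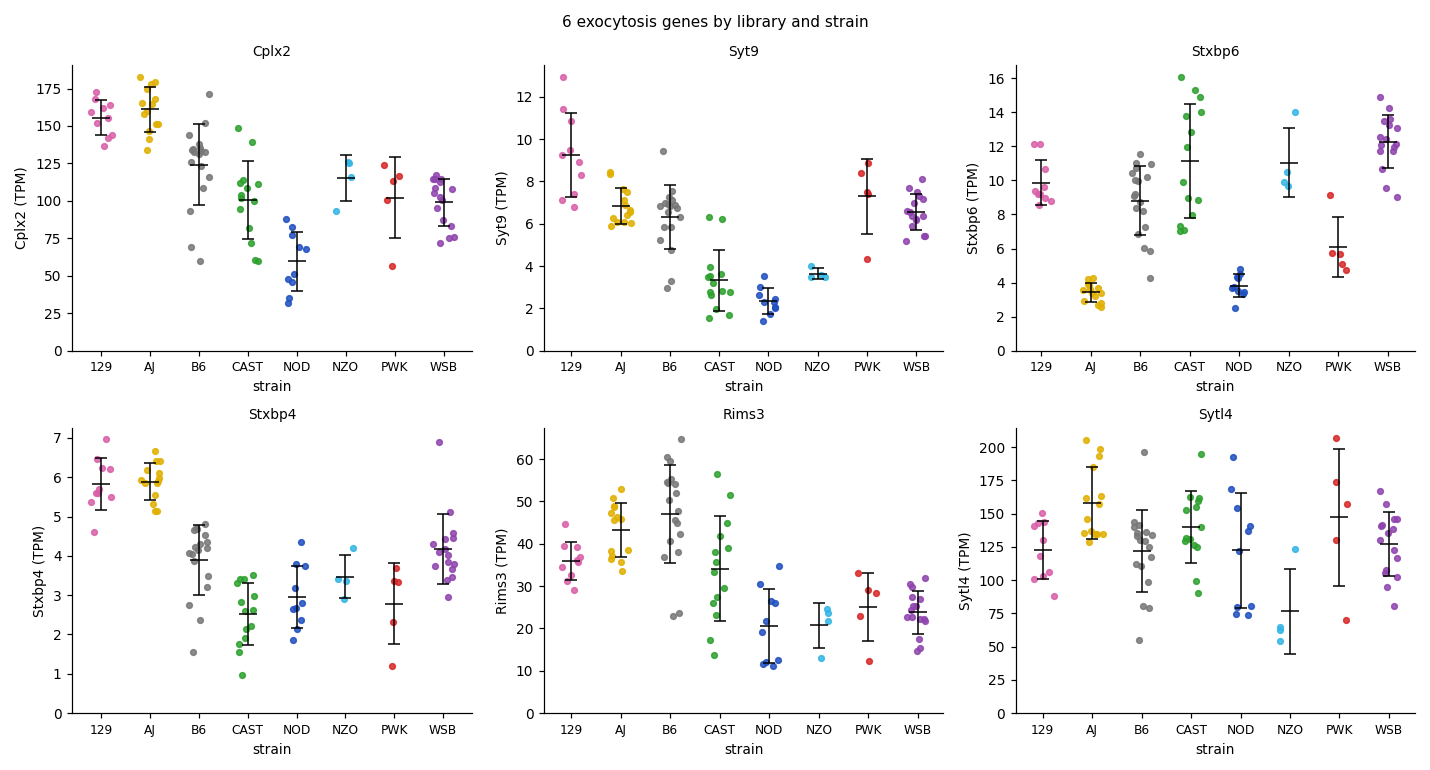
TPM of Cplx2, Syt9, Stxbp6, Stxbp4, Rims3 and Sytl4 in each library by strain, with the mean and SD of each strain. Cplx2 and Syt9 are lowest in NOD, Stxbp6 is low in AJ and NOD, and Sytl4 is low in NZO apart from 1 library at 124 TPM.

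Of the SNARE genes of the core complex, Vamp2 was highest in AJ, at 146, 177 and 208 TPM, and its range was 0.55 down to CAST, at 53.5, 105 and 129 TPM (SE 0.0609, adjusted p = 5.36e-13). AJ and CAST did not overlap, but 129, the nearest strain, was below AJ by only 0.19 (SE 0.0667, adjusted p = 0.0137). Snap25 varied by 0.55 between AJ and NOD, with medians of 77.3 and 49.9 TPM. Stx1a varied by 0.86 between 129 and CAST, with medians of 11.9 and 4.90 TPM. Neither was highest or lowest in 1 strain. Stx3, which is also found on granules, was lowest in NOD at 6.66, 12.2 and 15.2 TPM, against medians of 16.7 to 21.1 TPM. Vamp4, of the trans-Golgi network, was lowest in NOD at a median of 29.5 TPM. Vamp3, Vamp8 and Snap23, which are used in many cell types, had ranges of 0.46, 0.39 and 0.34. Snap91 was lowest in PWK at 3.27, 3.44, 4.29, 1.54 and 3.67 TPM, with a range of 1.60 from NZO.

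Stx4a, a plasma membrane syntaxin, was highest in NOD at 18.9, 44.95 and 93.1 TPM. Strand-aware counting was not stated, so reads where Stx4a overlaps the opposite strand cannot be told apart. Stx16, of the trans-Golgi network, was highest in PWK at 43.2, 62.7, 51.9, 25.2 and 55.7 TPM and lowest in B6 at 10.6, 19.9 and 26.9 TPM, a range of 0.96. Stx6 was highest in CAST by 0.09 over AJ. Stx2 and Stx17 were lowest in CAST, with medians of 4.18 and 3.94 TPM.

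Of the 7 syntaxin-binding proteins, 6 were lowest in 1 strain, against 21.7% of all genes. Stxbp6, or amisyn, which binds SNARE proteins and inhibits exocytosis, was at 2.56, 3.46 and 4.28 TPM in AJ and at 2.49, 3.70 and 4.82 TPM in NOD, against 9.05, 12.3 and 14.9 TPM in WSB. The AJ libraries lay below every library of 129, B6, CAST, NZO, PWK and WSB, and they overlapped those of NOD. The difference between WSB and AJ was 2.14 (SE 0.0897, adjusted p = 5.50e-37), and NOD was above AJ by 0.38 (SE 0.098, adjusted p = 5.30e-04).

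Stxbp4, or Synip, which binds Stx4a, was lowest in PWK in normalized counts. It was at 2.32, 3.69, 3.37, 1.19 and 3.33 TPM in PWK and at 5.13, 5.91 and 6.66 TPM in AJ, a range of 1.30. The median TPM was lower in CAST, at 2.61. Stxbp5l, or tomosyn-2, an inhibitor of SNARE assembly, was lowest in AJ at 1.16, 1.88 and 2.99 TPM, and its relative tomosyn (Stxbp5) was lowest in NOD at 5.96, 9.58 and 12.5 TPM. Stxbp3, or Munc18c, was lowest in NZO in normalized counts, at 14.5, 12.98, 11.6 and 13.6 TPM. Stxbp2, or Munc18b, was called in no strain.

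Among priming and scaffold genes, Unc13a was lowest in NOD, at 7.50, 14.2 and 17.6 TPM against medians of 22.5 to 36.6 TPM. The NOD libraries lay below every library of 129, PWK and WSB in normalized counts, and the difference from 129 was 1.00 (SE 0.0977, adjusted p = 3.64e-15). Rims2, the main RIM protein known in beta cells, was lowest in NOD at 4.91, 8.67 and 11.2 TPM against medians of 11.4 to 18.2 TPM. Rims3, a short RIM protein, was highest in B6 at 22.9, 49.01 and 64.7 TPM, above AJ by 0.32 (SE 0.122, adjusted p = 0.0242), and its range to NZO was 1.33. Unc13b was called in no strain.

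Cplx2 was lowest in NOD. It was at 31.99, 59.6 and 87.6 TPM in NOD and 134, 162 and 183 TPM in AJ, and medians in the strains other than NOD were 103 to 162 TPM. The NOD libraries lay below every library of 129, AJ, B6, CAST, NZO and WSB in normalized counts, and overlapped only PWK. The difference between AJ and NOD was 1.29 (SE 0.0833, adjusted p = 2.66e-24), and PWK, the nearest strain, was above NOD by 0.64 (SE 0.105, adjusted p = 1.95e-07). Cplx1 was lowest in NZO, at 0.15, 0.26, 0.16 and 0.16 TPM, and at 0.64, 1.93 and 3.51 TPM in WSB, a range of 3.53 (SE 0.558, adjusted p = 1.64e-07). Cplx3, a complexin of retinal synapses, was lowest in CAST, at 0, 0.025 and 0.25 TPM, and at 0.25, 0.705 and 1.37 TPM in 129.

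Leukocyte transcripts were also high in NOD. The summed level of 17 leukocyte markers was 44.04, 451 and 2220 TPM in NOD (lowest, median and highest), against medians of 41.7 to 96.9 TPM in the other strains. No marker of the 17 was at 0 in all libraries of a strain, and 13 of the 15 tested were themselves highest in NOD. Beta cell markers had a median of 325100 TPM in NOD, 329900 TPM in PWK and 449600 TPM over all libraries. Unc13d, the Munc13 of cytotoxic lymphocytes, was at 1.40, 7.55 and 32.8 TPM in NOD, against medians of 1.14 to 6.93 TPM. Its highest value was in replicate 7, the library with the most leukocyte transcripts, and it was at 1.77 and 2.22 TPM in replicates 4 and 6, which had 44.04 and 71.5 TPM of the markers. Stx11, a syntaxin of cytotoxic lymphocytes, was at 14.95 TPM in NOD replicate 7 and 0.71 TPM in NOD replicate 4. It also reached 2.03 TPM in AJ replicate 6, 2.10 TPM in B6 replicate 7 and 1.94 TPM in CAST replicate 6. These libraries had 83.4, 53.9 and 82.96 TPM of the markers. In normalized counts the NOD libraries lay above every library of 129, PWK and WSB and overlapped those of AJ, B6, CAST and NZO. The range of Stx11 was 4.17 between NOD and WSB (SE 0.402, adjusted p = 1.04e-15). Vamp5 and Stx4a were also highest in NOD replicate 7, at 33.8 and 93.1 TPM.

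With the mean log2 level of the 15 tested leukocyte markers as a covariate, 6 members were highest in 1 strain (13.6% of all genes) and 17 were lowest (16.1%). Of the 6 calls highest in NOD (Stx4a, Stx11, Syt15, Sytl3, Unc13d and Vamp5), 0 remained. The difference of Unc13d between NOD and CAST was 0.34 in place of 3.10, that of Stx11 between NOD and WSB 1.93 in place of 4.17, and that of Sytl3 between NOD and NZO 4.11 in place of 4.75. It was 1.48 in place of 2.47 for Syt15 (NOD and 129), 0.45 in place of 1.37 for Vamp5 and 0.42 in place of 0.74 for Stx4a (NOD and CAST). Of the 9 calls lowest in NOD, only that of Cplx2 remained, with a difference from AJ of 0.93 in place of 1.29. Among the calls lost, the difference between the highest strain and NOD was 0.55 in place of 1.00 for Unc13a, 0.37 in place of 0.84 for Rims2, 0.32 in place of 0.67 for Stx3, 0.42 in place of 0.67 for Syt7, 0.33 in place of 0.53 for Vamp4, 0.30 in place of 0.39 for Stxbp5 and 1.58 in place of 1.74 for Syt9. Outside NOD, the calls of Vamp2, Syt2, Rims3 and Sytl5 as highest and of Stxbp4, Stxbp5l and Syt12 as lowest were also lost. The difference of their end strains, those highest and lowest without the covariate, was 0.58 in place of 0.55 for Vamp2, 1.76 in place of 1.94 for Syt2, 1.05 in place of 1.33 for Rims3, 1.25 in place of 1.20 for Sytl5, 1.24 in place of 1.30 for Stxbp4, 1.74 in place of 1.72 for Stxbp5l and 1.39 in place of 1.38 for Syt12. Of the 6 members then highest, 5 had kept their strain and Unc13d was highest in PWK, and of the 17 lowest, 15 had kept theirs and Syt2 and Syt15 were added. Cplx2 was at 51.3 and 69.03 TPM in NOD replicates 4 and 6, which also held 191900 and 113700 TPM of acinar markers, above the median of 48470 TPM over all libraries. Without NOD replicate 7, 5 of the 6 and 8 of the 9 remained, and the call of Unc13d was lost. Without the 12 libraries whose counts of sex-linked genes were opposite to their label, which include NOD replicates 7 and 10, 4 of the 6 and 4 of the 9 remained, and those of Unc13d, Vamp5, Stx3, Vamp4, Stxbp5 and Syt9 were among the calls lost.

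**Figure D5:**
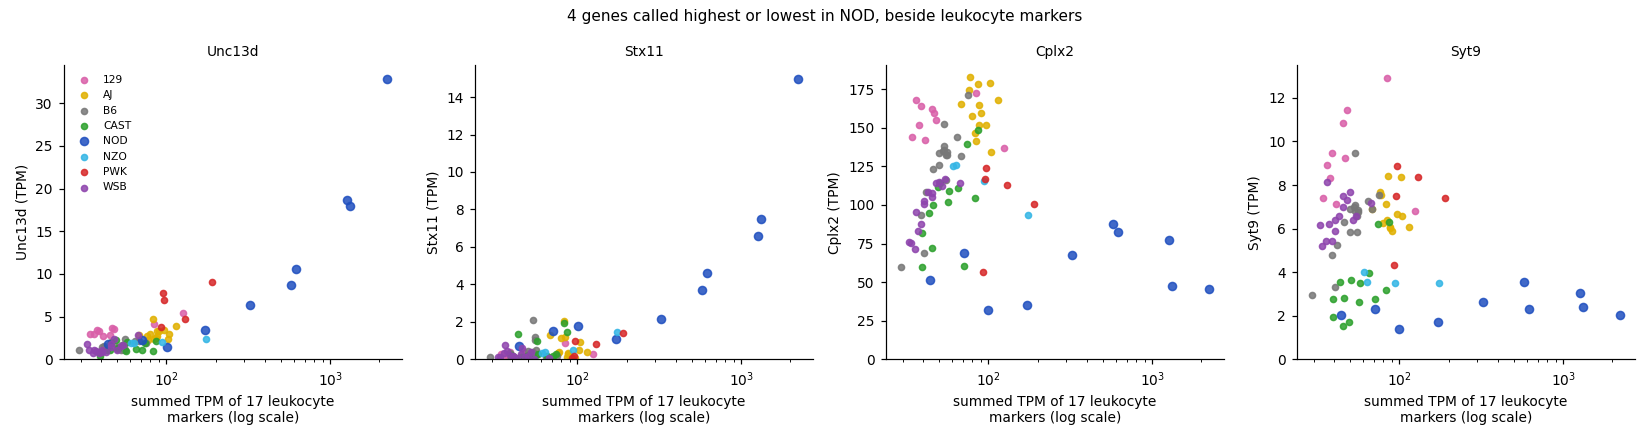
TPM of Unc13d, Stx11, Cplx2 and Syt9 in each library against the summed TPM of 17 leukocyte markers on a log axis, by strain. Unc13d and Stx11 reach 32.8 and 14.95 TPM in the NOD library with 2220 TPM of the markers. Cplx2 in NOD is at 51.3, 87.6 and 45.5 TPM in the libraries with 44.04, 577.5 and 2220 TPM of the markers. The first of these libraries also has 191900 TPM of acinar markers.

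The summed level of 4 delta cell markers had a median of 1371 TPM in NZO, 15410 TPM in PWK and 4669 TPM over all libraries. With these markers as the covariate, 6 members were highest in 1 strain (13.9% of all genes) and 14 were lowest (11%). Of the 6 highest, 4 had kept their strain and Stxbp5l and Sytl4 were added, and all 14 lowest had kept theirs. Of the 6 calls lowest in NZO only that of Sytl3 remained, and those of Stxbp3, Sytl4, Cplx1, Syt1 and Syt11 were lost. A call needs a difference from each of the other 7 strains, and it can be lost while the difference between the end strains stays about as large. This difference was 0.63 in place of 0.64 for Syt11, 0.86 in place of 1.05 for Sytl4, 2.70 in place of 3.53 for Cplx1 and 0.37 in place of 0.50 for Stxbp3. It was 0.52 in place of 2.05 for Syt1 and 0.34 in place of 1.72 for Stxbp5l. Syt13 differed by 1.77 between NZO and PWK in place of 1.38. In NOD 8 of the 9 calls as lowest remained and 3 of the 6 as highest, with those of Syt15, Unc13d and Vamp5 lost at end-strain differences of 2.44 in place of 2.47, 3.18 in place of 3.10 and 1.48 in place of 1.37. In PWK 2 of the 4 calls as lowest remained, with those of Snap91 (1.13 in place of 1.60) and Syt12 (0.84 in place of 1.38) lost. Of the 3 as highest in PWK 1 remained, that of Syt3, and that of Stx16 was lost at a difference of 0.75 in place of 0.96. In the other strains the calls lost were those of Vamp2, Syt2, Stx6, Rims3, Syt16 and Sytl5 as highest and Stxbp5l, Stx2, Cplx3 and Stx17 as lowest. Among these the difference of the end strains was 1.95 in place of 1.94 for Syt2, 2.77 in place of 2.52 for Syt16, 0.54 in place of 0.55 for Vamp2, 1.19 in place of 1.33 for Rims3, 0.71 in place of 0.67 for Stx17 and 2.85 in place of 3.98 for Cplx3.

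The summed level of the acinar markers had a median of 5416 TPM in AJ and 48470 TPM over all libraries. With these markers as the covariate, 13 members were highest in 1 strain (26.6% of all genes) and 24 were lowest (20.9%). Of the calls made without it, 12 of the 15 as highest and 23 of the 26 as lowest remained. These included all 15 in NOD and all 6 in NZO. Stx1a was added as highest and Rims1 as lowest. Lost were the calls of Vamp2 in AJ, Syt3 in PWK and Rims3 in B6 as highest, and of Stxbp5l and Stxbp6 in AJ and Stx17 in CAST as lowest. The difference of the end strains was 2.04 in place of 2.14 for Stxbp6, 1.65 in place of 1.72 for Stxbp5l, 1.33 in place of 1.33 for Rims3, 0.45 in place of 0.55 for Vamp2, 0.71 in place of 0.94 for Syt3 and 0.62 in place of 0.67 for Stx17. The difference of Rims4, at 0.365 ± 0.307 TPM, between WSB and AJ was then 0.32 in place of 2.69.

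The library numbers split the strains into a first set of AJ, B6, CAST and WSB (1 to 65) and a second set of 129, NOD, NZO and PWK (66 to 100). The labels name 4 waves of animals but not the wave of a library, so a difference between the sets cannot be told apart from one between number ranges. Within the first set 12 members had a strain range of at least 1 (23.3% of all genes), and within the second set 23 (34.3%). The fit of the first set also had the number range (1 to 32 or 34 to 65) as a covariate. In the first set, Syt13 was lower in CAST than in B6 by 1.15 (SE 0.0657, adjusted p = 2.37e-23), and Stxbp6 was lower in AJ than in WSB by 2.15 (SE 0.0711, adjusted p = 4.71e-35). In the second set, Syt13 was lower in PWK than in NZO by 1.38 (SE 0.21, adjusted p = 7.55e-06), Syt9 was lower in NOD than in 129 by 1.74 (SE 0.122, adjusted p = 8.25e-12) and Cplx2 by 1.17 (SE 0.134, adjusted p = 5.10e-08). Of the 9 members lowest in NOD, 7 were lowest there within the second set, and Rims2 was not. Of the 6 highest in NOD, 4 were highest there, and Unc13d and Vamp5 were not. NOD was above PWK in Unc13d by 0.85 (SE 0.472, adjusted p = 0.126) and above NZO in Vamp5 by 0.66 (SE 0.273, adjusted p = 0.0548). Sytl4 was not called lowest in NZO, which 129 exceeded by 0.49 (SE 0.255, adjusted p = 0.138), and Syt3 was not called highest in PWK, which exceeded NZO by 0.36 (SE 0.224, adjusted p = 0.21).

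A sex effect was found in 3 of the 63 members, against 4.01% of all genes. Stxbp5l was lower in males by 0.36 (SE 0.0937, adjusted p = 0.0131), Cplx3 was lower in males by 0.54 (SE 0.167, adjusted p = 0.0457), and Unc13a was higher in males by 0.16 (SE 0.0463, adjusted p = 0.0301). By edgeR 0 members had a sex effect with sums per sample, with the delta or the alpha markers as a covariate or within 129, NOD, NZO and PWK, with 5, 6, 7 and 7 members at an unadjusted p under 0.05. Of all genes 0%, 0.71%, 1.62% and 0% had one in these fits. In 12 libraries, 6 of 129, 2 of NOD and 4 of WSB, counts of Xist and Y-linked genes were opposite to the labelled sex. Without them, 10 members had a sex effect (9.79% of all genes), the same 3 among them. Among the others, Cplx2, Stx6 and Syt16 were lower in males, and Stx18, Syt3 and Snap91 were higher in males.

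An interaction of strain and sex, tested in the 6 strains other than NZO and PWK, was found in Rims4, Snap91 and Stxbp5l, or 3 members, against 5.9% of all genes. The order of the sexes by median acinar markers was not the same in every strain. The median was 117300 TPM in B6 females and 14220 TPM in B6 males, 33610 and 119000 TPM in WSB females and males, and 37210 and 191900 TPM in NOD females and males. With these markers as a covariate, edgeR found an interaction in 0 members (0.421% of all genes), with 7 at an unadjusted p under 0.05 in place of 12. The adjusted p was then 0.923 for Rims4, 0.144 for Snap91 and 0.127 for Stxbp5l. Snap91 was at 5.69 ± 1.74 TPM (SD, n = 9) in B6 females and 8.90 ± 1.11 TPM (SD, n = 9) in B6 males. In NOD it was at 7.80 ± 1.13 TPM (SD, n = 5) in females and 5.57 ± 1.35 TPM (SD, n = 5) in males, so the order of the sexes was opposite in the 2 strains. Without the 2 NOD libraries opposite to their label, the NOD means were 8.07 TPM in females and 5.31 TPM in males. Stxbp5l was at 3.84 ± 2.09 TPM (SD, n = 6) in CAST females and 1.93 ± 0.793 TPM (SD, n = 8) in CAST males, and at 3.49 ± 0.609 TPM (SD, n = 5) and 4.31 ± 1.79 TPM (SD, n = 5) in 129 females and males. Without the 6 libraries of 129 opposite to their label, the 129 means were 4.02 TPM in females and 2.50 TPM in males (2 libraries each), so the order of the sexes turned and was that of CAST. Without the 12 libraries, the interaction of Rims4 remained (adjusted p = 0.0159) and those of Snap91 (adjusted p = 0.434) and Stxbp5l (adjusted p = 0.33) were lost. In all 8 members then had an interaction, against 17.6% of all genes, and the others were Stx2, Stx4a, Sytl2, Sytl3, Unc13a, Unc13d and Vamp5. NOD replicate 7, with the most leukocyte transcripts, is among the 12 libraries.

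A list of 54 other genes of the granule path held Rab GTPases and their effectors, the exocyst, Nsf and its adaptors, priming factors, active zone scaffolds and vesicle membrane proteins. All 54 were tested and showed a strain effect, 22 had a strain range of at least 1 (44.4% of all genes), and 7 were highest (25.8%) and 10 lowest (21.7%) in 1 strain. Lowest in NOD were 5 (5.04% of all genes), which were Rab3b, Rph3al, Rimbp2, Bsn and Scamp5. Values of this list are from the fit to all libraries without marker covariates, and the part of leukocyte transcripts in them was not tested. Highest in NOD was 1 (11.3% of all genes), Ppfia4 of the liprin-alpha scaffolds, at 6.36 ± 6.15 TPM in NOD (SD, n = 10) with means of 0.299 to 0.769 TPM elsewhere. Its range of 3.86 (SE 0.225, adjusted p = 5.04e-27) was the widest of the 54. Rimbp2, which binds RIM proteins, differed by 0.88 between 129 and NOD (SE 0.103, adjusted p = 5.21e-12), and Rab3b, a GTPase of granule docking, by 1.61 between PWK and NOD (SE 0.149, adjusted p = 4.48e-16).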

How the data were processed

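Islet RNA-seq of 91 libraries in 16 samples was analysed, with each file of a sample taken as 1 library and strain and sex taken from its labels. The authors quantified reads with RSEM (version not given in the sources used here) on mm10 with GENCODE vM18, and deposited the expected count, the TPM value and an isoform-weighted length in bases for each gene. TPM is relative to all transcripts of a library, and RSEM divides reads that paralogs share. Total expected counts were 16928552 to 35196145 per library (median 27485367), and 3 counts equal 0.0852 to 0.177 CPM, which covers counting error only. Identifiers were matched to GENCODE M21 (54079 of 54146, 67 unmatched). Protein-coding genes of chromosomes 1 to 19 and X were kept, the lowest 10% by variance removed and non-zero counts in 85% of libraries required, which left 15204.

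Expected counts were rounded and fitted with edgeR 4.0.16 in R 4.3.3 (quasi-likelihood, upper-quartile normalization) on strain and sex, with Benjamini-Hochberg adjustment over all genes and a threshold of 0.05. Highest or lowest in 1 strain means beyond each of the other 7 in pairwise contrasts. Alternatives were TMM, median-ratio factors, DESeq2 1.42.0, limma 3.58.1 (voom), other filters, no sex covariate, an acinar or leukocyte covariate, sums per sample, sets of strains and leaving out libraries. Fits without NOD or NOD replicate 7, the delta and alpha covariates and the interaction without the libraries opposite to their sex label or with the acinar covariate were chosen after seeing the data. Python 3.11.15, numpy 2.4.6, pandas 2.3.3 and matplotlib 3.10.9 were used. The fit was also run on simulated data with few genes changed, in 1 strain. Most genes here had a strain effect, so that run does not test these calls.

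Genes were named where they are known for granule release, were among the 15 with the largest strain range at 1 TPM or more or the 5 with the highest level, or were called in 1 strain, for sex or for the interaction. Not every gene of the rule is named, and the results of 2 members are counted but not reported here. The members and lists were chosen with earlier results of these data known.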

Additional observations from a re-analysis of the deposited data

Results flagged for a closer look

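In the strains of 4 to 10 libraries, 216 sets of values, 1 for each strain and each of the 54 members at 1 TPM or more, were searched for a library far from the others of its strain, and 13 were found. Chance gives about 1 in 20 such sets. In PWK replicate 4, with 277600 TPM of acinar markers, Stx7 (21.49 TPM, next library 50.50), Syt2 (1.66, next 4.50), Snap25 (27.03, next 59.88) and Syt1 (1.79, next 3.33) were low. In NOD replicate 7, with 2220 TPM of leukocyte markers, Stxbp2 (117.29 TPM, next 77.95) and Vamp1 (17.01, next 11.09) were high. In NZO, Sytl4 was high in replicate 1 (123.62 TPM, next 65.05), Cplx1 (0.26, next 0.16) and Syt9 (4.02, next 3.57) were high in replicate 2, Stx12 was low in replicate 3 (20.04, next 24.07) and Unc13d was high in replicate 4 (2.39, next 1.99). Sytl3 was high in 129 replicate 4 (4.21 TPM, next 3.15) and Stxbp6 in PWK replicate 5 (9.14 TPM, next 5.72). The part of acinar and leukocyte transcripts in these values was not tested.

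The effect of sex differed between strains by edgeR's interaction test for Rims4 (adjusted p = 0.0162), Snap91 (adjusted p = 0.0366) and Stxbp5l (adjusted p = 0.0388). Without the libraries opposite to their sex label it was found for Rims4 of these 3, and with the acinar covariate for 0 of them (7 of 63 members at an unadjusted p under 0.05). Rims4 was at 0.658 ± 0.367 TPM (SD, n = 9) in B6 females and 0.294 ± 0.206 TPM (SD, n = 9) in B6 males, and at 0.42 ± 0.27 TPM (SD, n = 9) in WSB females and 0.876 ± 0.484 TPM (SD, n = 7) in WSB males, and the median of acinar markers was higher in B6 females and WSB males than in the other sex (117300 against 14220 TPM and 119000 against 33610 TPM).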

How the results depend on the processing

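The 63 tested members gave 29 with a strain range of at least 1, 15 highest and 26 lowest in 1 strain and 3 each with a sex effect and an interaction. The counts for range, highest, lowest and sex stayed within 1.5 times under TMM, median-ratio factors, DESeq2, limma-voom, filterByExpr, no filter, the acinar covariate and without NOD, and the first 3 also with no sex covariate, which gives no sex count. Under limma-voom the calls of Unc13d as highest and Stxbp5l, Cplx1, Cplx3 and Syt16 as lowest were lost, and with no sex covariate those of Vamp2, Syt2 and Stx6 as highest and Cplx3 as lowest. The interaction count, refitted in 2 ways, was 0 with the acinar covariate. The range count was 12 within AJ, B6, CAST and WSB (23.3% of all genes), a fit that also had the number range as a covariate. Members highest in 1 strain were 6 with the leukocyte or the delta covariate (13.6% and 13.9% of all genes) and 9 with sums per sample (18.3%). Members lowest were 17 and 14 with these covariates (16.1% and 11%) and 21 with sums per sample (14.6%). The sex count was 10, and the interaction count 8 (1 of them among the 3), without the libraries opposite to their label. By edgeR the sex count was 0 with sums per sample, the delta covariate, the alpha covariate and within 129, NOD, NZO and PWK, with 5, 6, 7 and 7 members at an unadjusted p under 0.05, against 0%, 0.71%, 1.62% and 0% of all genes, and it was 4 within AJ, B6, CAST and WSB (5.73% of all genes). With sums per sample, 9 of the 15 calls as highest remained (lost were Vamp2, Syt2, Stx6, Syt3, Rims3 and Syt16) and 20 of the 26 as lowest (lost were Stxbp5l, Cplx3, Syt16, Stxbp6, Syt12 and Stx17), and all calls in NOD and NZO remained. With the alpha covariate, 10 members were highest (21.3% of all genes) and 21 were lowest (18.3%). Of the calls made without it, 9 of the 15 and 17 of the 26 remained. Stxbp5l was added as highest, and Stx1a, Sytl2 and Syt15 were among those added as lowest. The calls of Sytl4 and Cplx1 in NZO were lost at end-strain differences of 0.79 in place of 1.05 and 2.98 in place of 3.53. Also lost as highest were Vamp2 (0.56 in place of 0.55), Syt2 (1.90 in place of 1.94) and Stx6 (0.24 in place of 0.25). As highest, Syt3 (0.98 in place of 0.94), Syt16 (2.55 in place of 2.52) and Sytl5 (1.09 in place of 1.20) were lost too. Lost as lowest were Stxbp5l (1.05 in place of 1.72), Cplx3 (3.55 in place of 3.98) and Stx17 (0.54 in place of 0.67). Syt12 (1.16 in place of 1.38) was lost as lowest too. In NOD 6 of 9 calls as lowest were kept, with Stxbp5 (0.34 in place of 0.39) and Vamp4 (0.51 in place of 0.53) among those lost. The sums leave fewer samples, the sets leave fewer strains and the first set has the added covariate. The cause of these and the other changes was not tested. Leaving out each NZO and PWK library in turn gave 61 to 62 members with a strain effect, 27 to 30 with the range, 12 to 14 highest, 23 to 27 lowest and 2 to 3 with a sex effect. Without NOD replicate 7 the sex count was 4, so that all single omissions gave 2 to 4. The strain effect of single genes, with the sign of the end-strain difference, was on the same side of the threshold in 1484 of 1508 values, and 0 signs reversed. Each value was that of a gene in an alternative fit that held both end strains. These are not the calls in 1 strain, which were lost more often. Low counts limit the precision of Stx19 and Cplx3. No paired analysis was possible because the labels give the libraries no shared replicate numbers.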

Other observations

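The gene length that RSEM weights by isoform differed between strains for some members. For 8 members at 1 TPM or more, every library of the strain with the longest mean lay above every library of the strain with the shortest, which is 14.8% of 54, against 13.1% of all genes tested at that level. These strains were chosen for their values, and no test was made. Stx7 had a mean length of 2265 ± 192 bases in NZO and 1746 ± 169.9 bases in PWK (SD, n = 4 and 5), Stxbp2 one of 1659 ± 76.3 bases in 129 and 1288 ± 96.8 bases in NZO (n = 10 and 4) and Unc13b one of 5316 ± 242 bases in CAST and 4578 ± 148 bases in PWK (n = 14 and 5). The others were Stx17, Stx18, Snap25, Sytl4 and Sytl5.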
